A study of Mus musculus with 6 samples.

Results

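The small nucleolar RNA host genes examined here were Gas5, Snhg1, Snhg3, Snhg5, Snhg6, Snhg8 and Snhg12, taken by symbol from a deposited table of 24391 genes. All 7 were present and all 7 were expressed highly enough to be tested, among 13366 tested genes. They were measured by mRNA sequencing in Neuro2a, a mouse neuroblastoma cell line, with 3 libraries from vehicle controls and 3 from cells exposed to 5 mM D-serine, the mirror-image form of L-serine. Exposure lasted 18 h, and for that time both groups were moved to D-MEM(-SG), named here as in the labels, which also contained 10% FBS. The labels do not say how the replicate cultures were set up, so p-values measure the spread between these libraries, which may be technical.

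Small nucleolar RNAs (snoRNAs) guide the chemical modification and processing of ribosomal RNA, and most are released from the introns of a host transcript after splicing. In noncoding hosts of the Gas5 and Snhg type, the spliced exons hold only short reading frames. Ribosomes that read them bring on nonsense-mediated decay, so these transcripts are known to accumulate when translation or decay slows, and Gas5 takes its name from its accumulation in growth-arrested cells. Many hosts start with a terminal oligopyrimidine tract, a run of C and T at the cap that ties translation of the RNA to growth signals.

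The start regions of the hosts are shown because this tract, where present, lies there. Each line gives 40 bases before and 20 bases after a transcription start of RefSeq on GRCm38.p6, 5′ to 3′ on the strand of the gene. Capitals mark each TATA between positions -40 and -15 and the longest uninterrupted run of C and T between positions -10 and 20, counted from 1 at the start. The table of starts held 6 of the 7 hosts, and not Snhg6.

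Gas5, start 1 (chr1:161034561-161034620, plus strand): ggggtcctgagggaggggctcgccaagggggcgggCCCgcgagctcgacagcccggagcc
Gas5, start 2 (chr1:161035126-161035185, plus strand): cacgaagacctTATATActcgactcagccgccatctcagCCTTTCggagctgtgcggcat
Snhg1 (chr19:8723447-8723506, plus strand): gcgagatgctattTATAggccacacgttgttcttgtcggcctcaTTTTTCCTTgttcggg
Snhg3 (chr4:132353667-132353726, minus strand): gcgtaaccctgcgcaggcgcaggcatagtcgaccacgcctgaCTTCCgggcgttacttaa
Snhg5 (chr9:88522878-88522937, minus strand): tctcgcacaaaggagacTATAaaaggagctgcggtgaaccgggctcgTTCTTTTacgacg
Snhg8 (chr3:123508317-123508376, minus strand): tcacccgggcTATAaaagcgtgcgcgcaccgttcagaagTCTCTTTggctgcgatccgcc
Snhg12 (chr4:132308638-132308697, plus strand): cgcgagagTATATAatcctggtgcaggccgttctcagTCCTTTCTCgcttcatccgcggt

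A run of at least 5 C or T was found at 6 of these 7 starts, which belong to 6 hosts, against 46.3% of all 32544 distinct starts and 67.1% of the 73 starts of ribosomal protein genes, which are the classic carriers of the tract. The longest runs were 9 bases in Snhg1 and Snhg12, a length reached by 7.1% of all starts. The first start of Gas5, with a run of 3, was the start without one of 5. The search did not require a run to lie at the cap. Those of Snhg1, Snhg3 and Snhg5 began at positions 5, 3 and 8, past the annotated start. Those of the second Gas5 start, Snhg8 and Snhg12 began at -1, -1 and -3. Whether any run is a terminal oligopyrimidine tract was not tested. The letters TATA stood upstream of 5 of the 7 starts, those of Snhg3 and the first of Gas5 being the exceptions, against 6.06% of all starts and 8.22% of those of ribosomal protein genes. Both letter searches were made on the transcript strand alone, and were chosen after the sequences had been seen. Gas5 had 2 RefSeq starts, and its second carried both features.

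The snoRNAs are known functional products of these hosts. GENCODE M21 places 29 snoRNA genes inside the 7 hosts on the same strand, with 10 in Gas5, 8 in Snhg1, 5 in Snhg12, 2 each in Snhg3 and Snhg5, and 1 each in Snhg6 and Snhg8. These counts include 2 pairs of overlapping records, of Snord80 in Gas5 and of Snora16a in Snhg12. For each host, 1 snoRNA is shown (GENCODE M21, GRCm38), so that both kinds of cargo can be seen. Capitals mark the box C letters TGATGA and the box D letters CTGA of box C/D snoRNAs, a class that guides 2′-O-methylation. In H/ACA snoRNAs, a class that guides pseudouridylation, capitals mark the ACA that stands 3 bases before the end. Whether each snoRNA shown guides a modification was not tested.

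Snord47, in Gas5 (chr1:161038082-161038158, plus strand): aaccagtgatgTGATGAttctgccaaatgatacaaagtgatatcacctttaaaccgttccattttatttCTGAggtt
Gm25855, in Snhg1 (chr19:8723993-8724064, plus strand): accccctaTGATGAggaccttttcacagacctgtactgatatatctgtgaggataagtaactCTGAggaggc
Snora73a, in Snhg3 (chr4:132352775-132352979, minus strand): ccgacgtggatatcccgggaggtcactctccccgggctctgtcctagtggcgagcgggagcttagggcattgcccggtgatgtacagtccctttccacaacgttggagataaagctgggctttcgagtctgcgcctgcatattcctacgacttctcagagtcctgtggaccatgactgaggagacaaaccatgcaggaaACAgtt
Snord50a, in Snhg5 (chr9:88521529-88521600, minus strand): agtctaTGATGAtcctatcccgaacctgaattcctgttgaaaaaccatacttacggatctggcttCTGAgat
Snord87, in Snhg6 (chr1:9942463-9942549, minus strand): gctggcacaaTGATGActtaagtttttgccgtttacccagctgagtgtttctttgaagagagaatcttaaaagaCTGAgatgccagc
Snora24, in Snhg8 (chr3:123507937-123508066, minus strand): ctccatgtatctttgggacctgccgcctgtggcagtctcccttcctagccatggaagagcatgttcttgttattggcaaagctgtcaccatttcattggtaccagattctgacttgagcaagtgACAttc
Snord99, in Snhg12 (chr4:132310691-132310764, plus strand): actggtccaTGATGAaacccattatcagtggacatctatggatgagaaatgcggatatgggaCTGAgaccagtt

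By these letters, 18 of the 29 records were of the C/D kind and 6 of the H/ACA kind. The classed records of Gas5, Snhg1, Snhg5 and Snhg6 were all C/D, those of Snhg3 and Snhg8 were all H/ACA, and Snhg12 held both kinds. The other 5 records matched neither pattern.

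The deposited table gives the gene models that were counted, with coordinates from a build it does not name. The submitters' processing notes list GRCm38 and mm10, but 0 of the 7 hosts had the same start in RefSeq of GRCm38, so the positions here are as deposited. Gas5 lies on chromosome 1 (162965297 to 162968668, plus strand), Snhg1 on chromosome 19 (8797977 to 8800816, plus strand) and Snhg3 on chromosome 4 (131907848 to 131909601, minus strand). Snhg5 lies on chromosome 9 (88415891 to 88417735, minus strand), Snhg6 on chromosome 1 (9932106 to 9934199, minus strand), Snhg8 on chromosome 3 (123210470 to 123211254, minus strand) and Snhg12 on chromosome 4 (131864593 to 131866939, plus strand). Gas5 has 2554 exonic bases and the models of the other 6 hosts have 407 to 1010. The model of Gas5 is long because the longest of its 4 exons spans 2382 bases. GENCODE M21 classes 20 of its 25 Gas5 transcripts as retained-intron forms, and the share of the Gas5 count that comes from such forms was not tested. Snhg8 is modelled as 1 exon of 785 bases that encloses all 130 bases of Snora24, so its count and its level per length are uncertain.

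Each library held from 32518483 to 40024265 gene counts. The 7 hosts took from 0.0771% to 0.0856% of a library, and Snhg1 and Snhg12 supplied from 71.8% to 73.4% of that share. Neuronal markers were present, with Tubb3 at 536 CPM on average (CPM scales gene counts to one library size). The summed level of 15 neuroblastoma and neuron markers was 1630 to 1720 CPM in control and 1750 to 1880 CPM with D-serine, and its part in the results was not tested. Th and Dbh, the catecholamine enzymes, were low at 1.96 and 1.56 CPM. Of 14 markers of other cell types, Col3a1 and Aqp4 had no count, and the summed level of the 14 was 24.6 to 25.5 CPM in control and 22.7 to 26.5 CPM with D-serine. D-serine replicate 1 stood apart in how its counts depended on gene length. Its log2 CPM fell by 0.0717 per doubling of exonic length relative to the mean of the 6 libraries, while the other slopes lay between -0.00397 and 0.0356. Because the hosts are short (median 606 bases, against 2834 in all tested genes), the 7 hosts were also fitted with each library's length trend removed and without D-serine replicate 1.

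D-serine was compared with vehicle to ask whether host transcript levels moved. In the edgeR quasi-likelihood test, 0 of the 7 hosts passed an adjusted p of 0.05, where 9.74% of all tested genes did. At an unadjusted p under 0.05 there was 1, Snhg12, against 28.2% of all tested genes. DESeq2 and limma-voom also called 0 of 7, against 12.3% and 9.43% of all tested genes. The groups' libraries overlapped in all 7 hosts, whereas 32.9% of tested genes were without overlap. The median log2 fold change was -0.032 over the hosts and 0.0053 over all tested genes, with 3 hosts above 0 and 4 below. In these bulk libraries, fewer cells expressing a gene and less RNA per cell cannot be told apart.

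**Figure D1:**
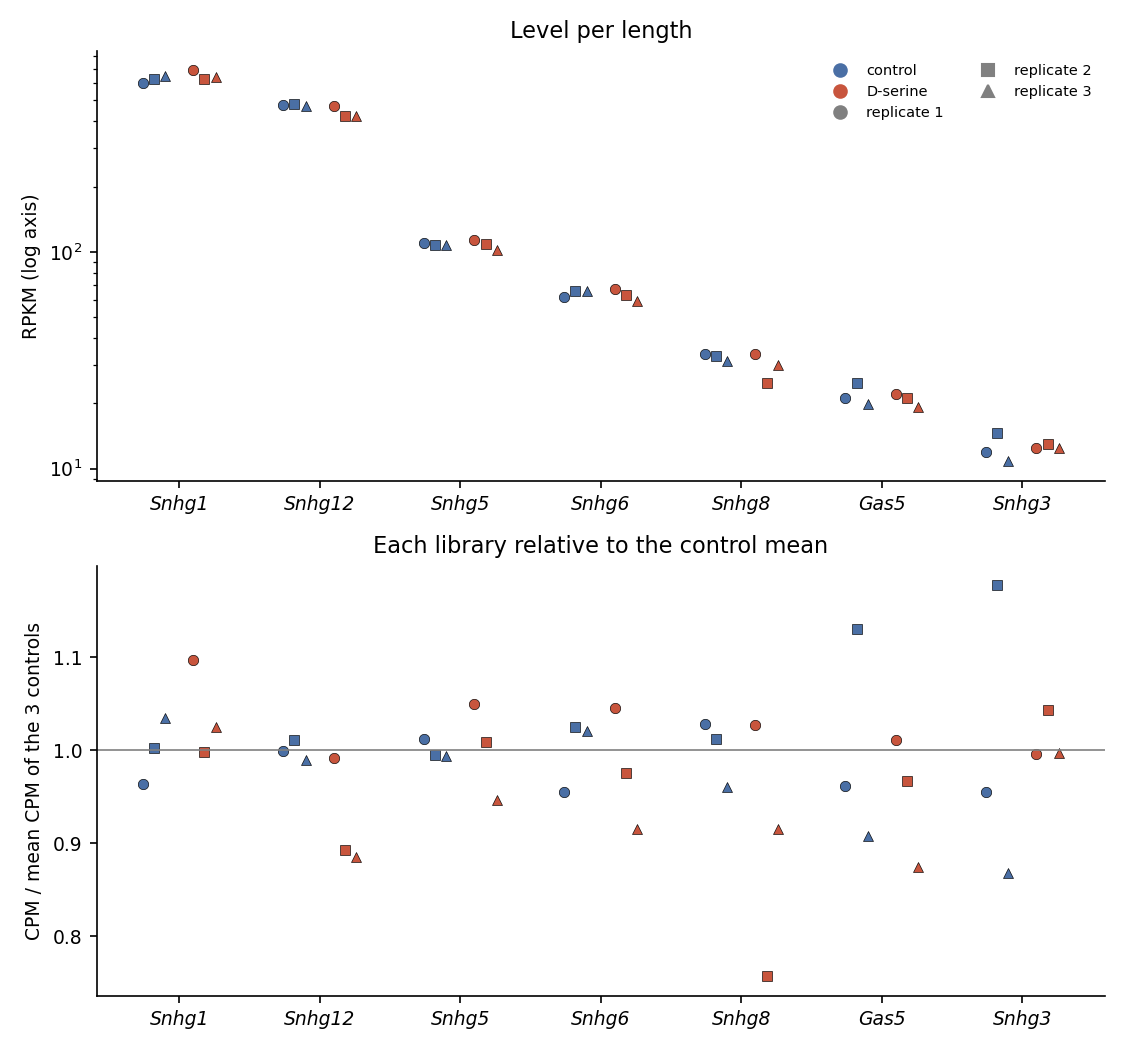
Levels of the 7 host genes in each library. Top, CPM per 1000 exonic bases (RPKM) on a log axis; bottom, CPM divided by the mean of the 3 controls; points are libraries, coloured by group and shaped by replicate. The hosts keep their order of level in both groups, and the control and D-serine points overlap for every host.

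Per length, as CPM per 1000 exonic bases (RPKM), the hosts spanned a wide range of levels. Snhg1 was highest, from 603 to 687 RPKM over the 6 libraries, and Snhg12 followed with 421 to 481. Snhg5 lay between 102 and 113, Snhg6 between 59.0 and 67.5, Snhg8 between 24.81 and 33.7, Gas5 between 19.2 and 24.77, and Snhg3 between 10.8 and 14.7. No neighbours in this order overlapped across the 6 libraries, although the lowest Snhg8 value and the highest Gas5 value nearly met. The Gas5 level is per base of a model with a long exon.

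Gas5, a host of C/D snoRNAs that is studied as a growth-arrest transcript, had 53.8, 63.3 and 50.8 CPM in the controls, in replicate order. With D-serine it was at 56.6, 54.2 and 48.95 CPM. Control replicate 2 was the highest of all 6 and D-serine replicate 3 the lowest, so the groups overlapped. Its log2 fold change was -0.073 (SE 0.079, edgeR adjusted p = 0.576), with a 95% interval from -15.5% to 6.87%. It was -0.11 with the length trend removed and -0.12 without D-serine replicate 1 (edgeR adjusted p = 0.272 and 0.295).

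Snhg1, the other host with many C/D snoRNAs, was at 287.1, 298.6 and 308.1 CPM in control and at 326.9, 297.4 and 305.4 CPM with D-serine. D-serine replicate 1 was highest, and the other two D-serine libraries lay within the control range. The difference on the log2 scale was 0.057 (SE 0.047, edgeR adjusted p = 0.459), with a 95% interval from -3.05% to 11.6%. Its sign was not stable to the length trend, with a value of -0.053 once the trend was removed (adjusted p = 0.336), while without D-serine replicate 1 it was 0.017 (adjusted p = 0.815).

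Snhg12 was the host nearest to a call. Its level was 287.9, 291.5 and 285.3 CPM in control, a coefficient of variation of 1.08%, and 285.8, 257.4 and 255.1 with D-serine. D-serine replicates 2 and 3 lay below every control, whereas D-serine replicate 1 lay among them. The log2 fold change was -0.12 (SE 0.048, edgeR adjusted p = 0.139), with a 95% interval from -14.1% to -0.753%. Without D-serine replicate 1, Snhg12 passed the threshold (-0.17, adjusted p = 0.0029), as it did with the length trend removed (-0.23, adjusted p = 0.000246).

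Snhg8, which hosts the H/ACA snoRNA Snora24, was at 26.4, 26.0 and 24.7 CPM in control and at 26.4, 19.5 and 23.5 CPM with D-serine. D-serine replicate 2 stood lowest, and D-serine replicate 1 was within the control range. In log2 terms the fold change was -0.15 (SE 0.094, edgeR adjusted p = 0.316), with a 95% interval from -21.7% to 3.64%. This value rested on D-serine replicate 2, without which it was -0.042. Snhg8 passed the threshold without D-serine replicate 1 (-0.26, adjusted p = 0.0439) and with the length trend removed (-0.27, adjusted p = 0.0225).

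The other 3 hosts differed least. Snhg5, host of Snord50a and Snord50b, was at 110.4, 108.5 and 108.4 CPM in control and at 114.5, 110.0 and 103.3 CPM with D-serine, so that the D-serine libraries lay on both sides of the controls. Its log2 fold change was 0.0019 (SE 0.048, edgeR adjusted p = 0.987), with a 95% interval from -6.83% to 7.61%. With the length trend removed it was -0.11, still short of a call (adjusted p = 0.0799), and without D-serine replicate 1 it was -0.033 (adjusted p = 0.667).

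Snhg6, the host of Snord87, was at 25.1, 26.9 and 26.8 CPM in control and at 27.5, 25.6 and 24.03 CPM with D-serine. The D-serine libraries again lay on both sides of the controls, and the log2 fold change was -0.032 (SE 0.069, edgeR adjusted p = 0.805), with a 95% interval from -11.8% to 8.48%. Once the length trend was removed Snhg6 was at -0.14, and without D-serine replicate 1 at -0.083 (edgeR adjusted p = 0.168 and 0.496). Snhg3, the host of Snora73a and Snora73b, was at 5.21, 6.42 and 4.73 CPM in control and at 5.43, 5.68 and 5.44 CPM with D-serine. The D-serine libraries lay inside the control range, and the log2 fold change was 0.016 (SE 0.14, edgeR adjusted p = 0.958). Snhg3 rested on 168 to 238 counts per library, and its interval was the widest of the 7, from -17.5% to 24.0%. Its sign turned with the length trend removed (-0.088, edgeR adjusted p = 0.713) and not without D-serine replicate 1 (0.027, adjusted p = 0.933).

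**Figure D2:**
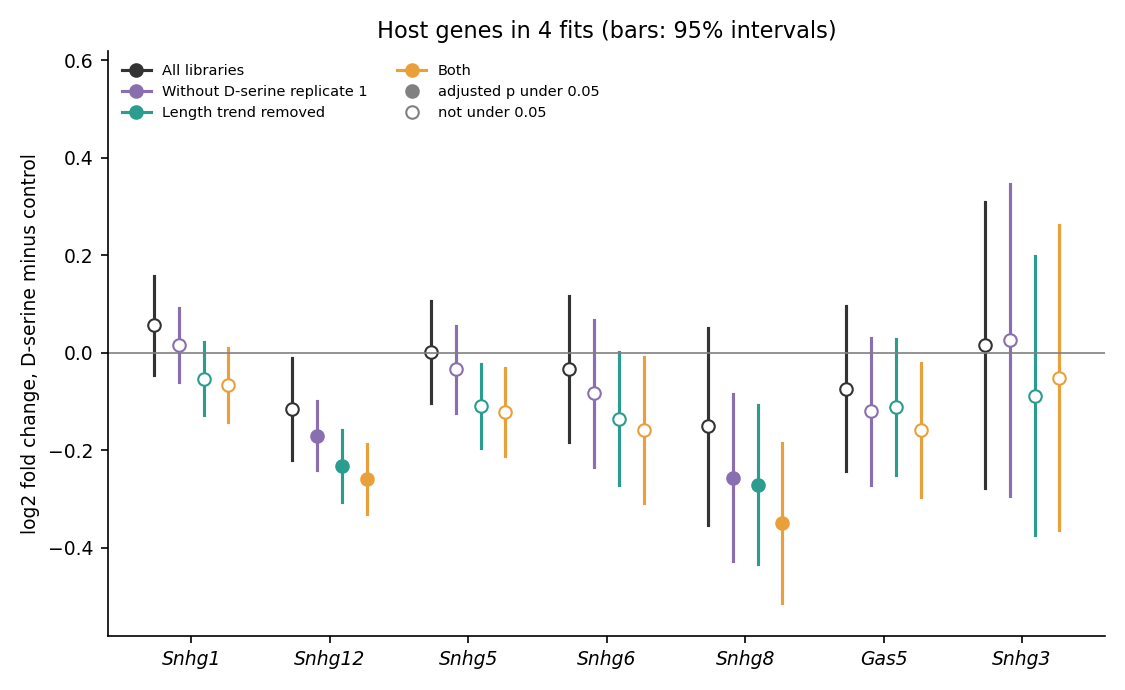
Log2 fold change of each host gene (D-serine minus control) in 4 fits, with 95% intervals; filled points have an edgeR adjusted p under 0.05. In the fit with all 6 libraries and no length correction 0 hosts are called, whereas Snhg12 and Snhg8 are called below 0 in the other 3 fits.

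The fits that dealt with length or with the library that stood apart called the same pair of hosts. With each library's length trend removed, 2 of the 7 hosts passed, Snhg12 and Snhg8, both lower, where 15.8% of all tested genes passed. All 7 hosts were then below 0, and their median was -0.11 against -0.022 in all tested genes. Without D-serine replicate 1 the same 2 passed, where 12.5% of all tested genes did. With both changes made, an alternative chosen after seeing the data, the log2 fold changes of Snhg12 and Snhg8 were -0.26 and -0.35 (edgeR adjusted p = 1.7e-05 and 0.0034), where 15.5% of all tested genes passed. Gas5, Snhg1, Snhg3, Snhg5 and Snhg6 were past the threshold in none of the 17 alternatives.

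**Figure D3:**
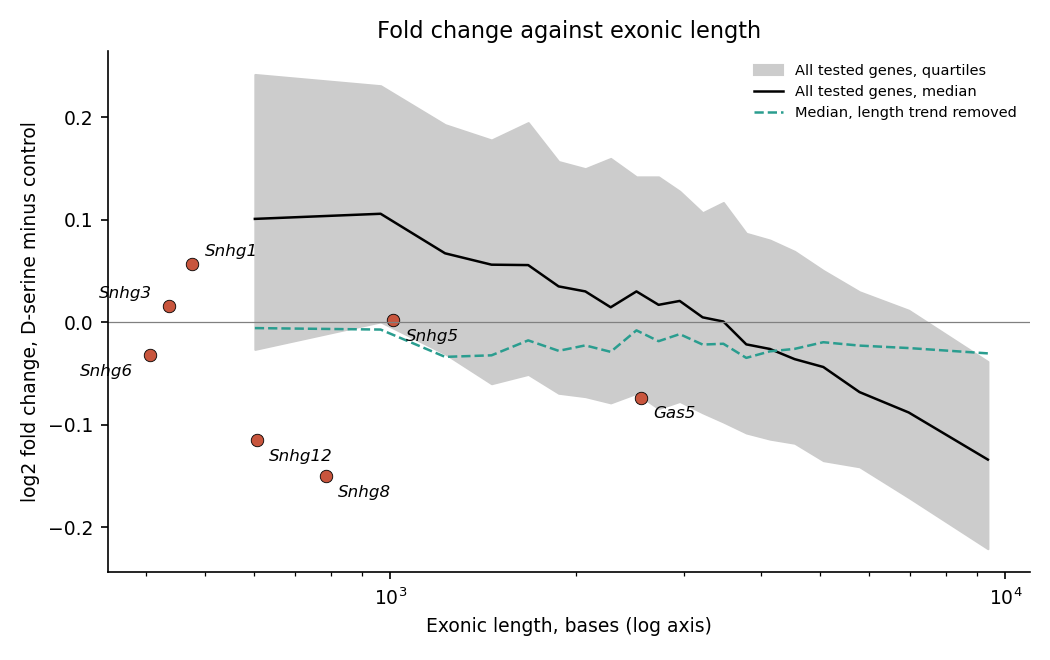
Log2 fold change against exonic length in bases (log axis) for the 7 host genes (points) and for all tested genes in 20 bins of length (line, median; band, quartiles; dashed line, median with the length trend removed). Every host lies below the median of the length bin it falls in, and Snhg8 and Snhg12 lie lowest.

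The median log2 fold change was 0.10 in the bin of the shortest tested genes and -0.13 in that of the longest. Each host was under the median of its bin, as the plot against exonic length shows. The part of the length dependence in the host values was not tested beyond these fits.

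A ratio of counts within a library needs no scaling. The ratio of Snhg12 to Snhg1, which have similar exonic lengths (606 and 476 bases), was 1.0, 0.976 and 0.926 in the controls. With D-serine it was 0.874, 0.865 and 0.835. All 3 D-serine values lay below all 3 controls. The log2 ratio differed by -0.17, from a mean of -0.047 (SD 0.059) in control to -0.22 (SD 0.034) with D-serine. An exact permutation test, two-sided, gave p = 0.1, which is the lowest value possible with n = 3 per group. This pair was chosen after its values were seen.

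**Figure D4:**
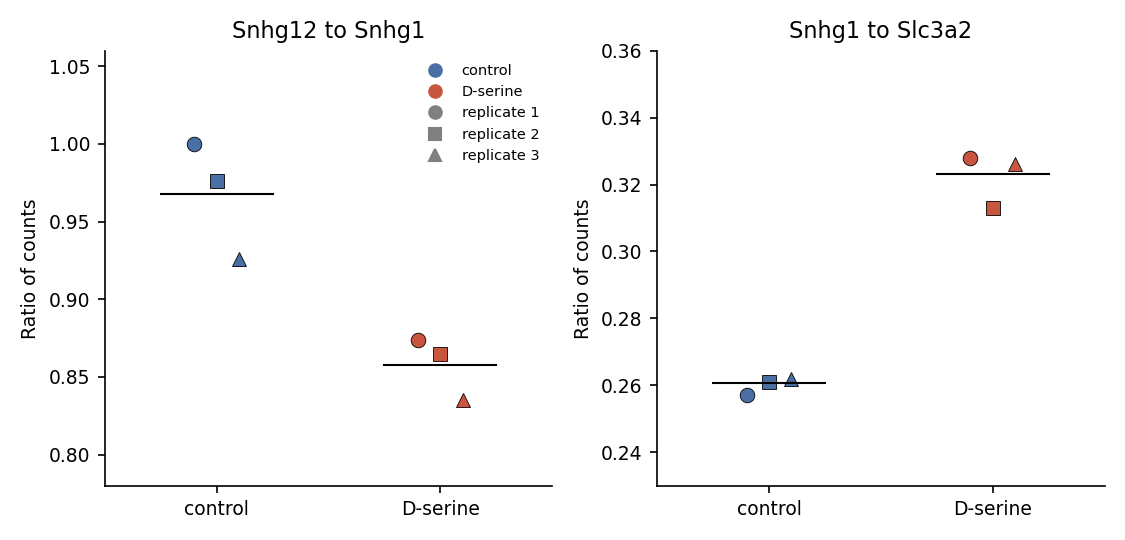
Ratio of counts within each library for Snhg12 to Snhg1 (left) and Snhg1 to Slc3a2 (right); points are libraries and bars are geometric means. The groups do not overlap in either ratio, which is lower with D-serine on the left and higher on the right.

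By position, 4 other genes of the table lay within 1000 bases of a host without overlapping it. Snhg1 and Slc3a2, which encodes the heavy subunit shared by several amino acid exchangers, start 117 bases apart and run in opposite directions. Slc3a2 fell, with 1144 ± 29.2 CPM in control against 962 ± 31.3 CPM (mean ± SD, n = 3; log2 fold change -0.25, and -0.28 with the length trend removed; edgeR adjusted p = 0.006 and 8.03e-05), while Snhg1 was at 297.9 ± 10.5 and 309.9 ± 15.3 CPM. The ratio of Snhg1 to Slc3a2 counts was 0.257, 0.261 and 0.262 in control and 0.328, 0.313 and 0.326 with D-serine. The groups did not overlap, and the log2 ratio differed by 0.31 (p = 0.1 in the same exact test). The ratio was not corrected for the length trend, with which removed the log2 fold change of Snhg1 was -0.053. Zbtb37, which starts 906 bases from Gas5 on the other strand, and Trnau1ap, which ends 738 bases from Snhg12, did not pass (log2 fold change 0.22 and 0.11, edgeR adjusted p = 0.359 and 0.286), and Prss12 near Snhg8 was too low to be tested. The neighbours were chosen by distance, and the ratio after its values were seen.

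The table lists 8 snoRNA genes inside 5 of the hosts, and 6 of them could be tested. None was called by edgeR, with 0 at an unadjusted p under 0.05. Mature snoRNAs carry no poly(A) tail, so a poly(A) library is not made to capture them, and their counts were small. Snord47 in Gas5 had 49 to 92 counts per library, or 2.56% to 3.97% of the Gas5 count, and a log2 fold change of 0.0034 (SE 0.27). Snord22 in Snhg1 had 70 to 89 counts and a log2 fold change of -0.073 (SE 0.19). The 4 in Snhg12 were Snora16a (24 to 38 counts, log2 fold change -0.43, SE 0.31), Snora44 (9 to 16, 0.42, SE 0.43), Snora61 (32 to 60, -0.38, SE 0.28) and Snord99 (15 to 44, -0.16, SE 0.41). Snord87 had at most 13 counts, and Snora24, which lies wholly within the Snhg8 exon, had 0 in every library. How reads that fall in both genes were counted was not tested, so this 0 and the Snhg8 count are uncertain. The output of snoRNAs by the hosts is not measured by these values.

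Across the 6 libraries, control replicate 2 and D-serine replicate 1 were each the highest library for 3 of the 7 hosts, and D-serine replicate 3 was the lowest for 4. The genes whose log2 CPM followed the mean profile of the hosts most closely, among 9793 named genes with at least 5 CPM, were St6galnac6 (Pearson's r = 0.984), Tacc3 (0.953), Mepce (0.952), Tbce (0.947) and Umps (0.946). Each r is over 6 libraries that share depth and preparation, and describes these libraries only.

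The wider pathway was read from lists chosen with earlier results of these data known. Of 16 other noncoding snoRNA hosts, 13 were tested and 1 rose, against 9.74% called among all tested genes. Their median log2 fold change was 0.083, with 10 above 0 and 3 below, and -0.024 with the length trend removed. The gene that rose was D17H6S56E-5, a noncoding host in the list, at 13.95, 11.9 and 10.8 CPM in control and 17.5, 16.2 and 19.04 CPM with D-serine (log2 fold change 0.53, SE 0.10, edgeR adjusted p = 0.0115). All its D-serine libraries lay above all controls. It passed in 15 of the 17 alternatives and missed without control replicate 2 (edgeR adjusted p = 0.0604) or D-serine replicate 3 (0.0505). Zfas1 (282 ± 8.06 and 285 ± 21.8 CPM), Snhg15 (231 ± 6.57 and 238 ± 22.7 CPM) and Snhg16 (30.7 ± 0.37 and 29.4 ± 2.14 CPM), matched by older symbols, are hosts of the same type and did not pass (mean ± SD, n = 3; edgeR adjusted p = 0.887, 0.687 and 0.560). Dancr did not pass either (log2 fold change 0.17, edgeR adjusted p = 0.579). Snhg4, named after its values were seen, was at 11.6 ± 1.17 and 9.26 ± 0.73 CPM (mean ± SD, n = 3; log2 fold change -0.33, edgeR adjusted p = 0.0609) and passed with the length trend removed (-0.43, adjusted p = 0.00704). Zfas1 shares 82 exonic bases with Znfx1 on the opposite strand, Snhg16 shares 76 with Snord1a and Dancr shares 121 with Snora26, so their counts are uncertain.

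Protein-coding genes can also host snoRNAs. Of 48 tested, 4 passed, or 8.33% against 9.74% of all tested genes, with 2 higher and 2 lower, and the median log2 fold change was 0.009. The mitochondrial chaperone Hspa9 fell (log2 fold change -0.14, edgeR adjusted p = 0.0393). The ribosomal protein genes Rpl3 (0.18, adjusted p = 0.0404) and Mrpl3 (0.26, adjusted p = 0.0182), the latter of the mitochondrial ribosome, rose. Under upper quartile scaling or library totals 6 were higher and 1 lower. All called genes then divided into 914 higher and 412 lower, and 944 and 412, against 647 and 655 in the main fit. With the length trend removed 1 was higher and 10 lower, where 15.8% of all tested genes passed. Hspa9 missed under both scalings (adjusted p = 0.110 and 0.0899) and Rpl3 with the length trend removed (0.128). The direction of this group therefore depended on the processing. Leaving out 1 library also ended calls: Rpl3 and Mrpl3 missed without any 1 control or D-serine replicate 3 (edgeR adjusted p up to 0.167 and 0.0731), and Hspa9 without any 1 library other than D-serine replicate 1 (up to 0.160).

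Nonsense-mediated decay removes the spliced host transcripts, so its factors were examined. Of 24 tested, 3 passed, or 12.5% against 9.74% of all tested genes: Upf1 fell and Pnrc2 and Rbm8a rose. Upf1, the RNA helicase at the core of the pathway, was at 321.6, 314.6 and 315.9 CPM in control and at 249.5, 265.5 and 258.2 CPM with D-serine. Every D-serine library was below every control. The log2 fold change was -0.30 (SE 0.041, edgeR adjusted p = 0.0032), it passed in all 17 alternatives, and it was -0.29 with the length trend removed. Upf1 shares up to 71 exonic bases with Cers1 and Gdf1 on the opposite strand, of 4616 in its model.

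**Figure D5:**
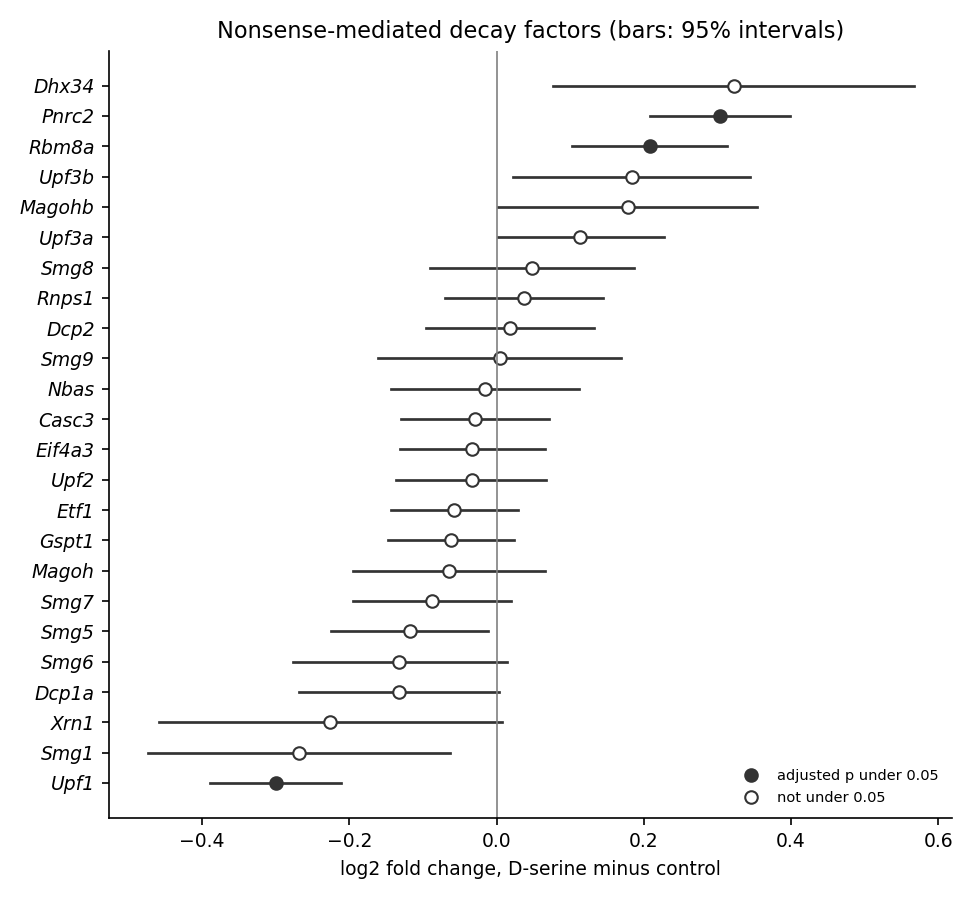
Log2 fold change (D-serine minus control, horizontal axis) of 24 nonsense-mediated decay factors with 95% intervals; filled points have an edgeR adjusted p under 0.05. Upf1 is lowest at -0.30, and Pnrc2 and Rbm8a are the called genes above 0.

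Pnrc2, which links UPF1 to the decapping enzyme, was at 85.1, 84.7 and 82.05 CPM in control and at 102.5, 103.7 and 104.7 CPM with D-serine. The log2 fold change was 0.30 (SE 0.044, edgeR adjusted p = 0.00445), and it too passed in all 17 alternatives, with 0.24 once the length trend was removed. Rbm8a, a component of the exon junction complex that is left on spliced RNA, rose as well, with 102.7 ± 4.67 CPM in control against 118.7 ± 3.98 CPM (mean ± SD, n = 3; log2 fold change 0.21, edgeR adjusted p = 0.0224). Removal of the length trend left Rbm8a at 0.17 (adjusted p = 0.0123). It missed without control replicate 1 (0.103), control replicate 2 (0.0867) or D-serine replicate 3 (0.0712). Smg1, the kinase that phosphorylates UPF1, was at 436 ± 29.4 and 362 ± 62.3 CPM (mean ± SD, n = 3; log2 fold change -0.27, edgeR adjusted p = 0.0878). With the length trend removed, Smg1, whose model has 15553 bases, passed with a smaller value (-0.12, adjusted p = 0.0271). The median over the 24 was -0.031.

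Genes with transcripts reported as targets of the same pathway were listed for comparison. Counts are per gene and do not separate splice forms, and the rate of decay was not tested. Of 15 tested, 2 rose, or 13.3% against 9.74% of all tested genes, and 12 were above 0, the median on the log2 scale being 0.12. The 2 were Nat9 (log2 fold change 0.33, edgeR adjusted p = 0.0222) and the splicing regulator Tra2b (0.15, adjusted p = 0.0418). With the length trend removed 1 passed, Nat9, where 15.8% of all tested genes did, and the median was 0.095. Under upper quartile scaling or library totals 6 were higher and 0 lower. All called genes divided into 914 higher and 412 lower under the first, and 944 and 412 under the second. In the main fit they were 647 higher and 655 lower. Nat9 and Tra2b both missed the threshold without any 1 control or D-serine replicate 3 (edgeR adjusted p up to 0.0816 for Nat9 and 0.150 for Tra2b). Upf3a and Smg5 stand in both lists and were not called.

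Among 19 tested proteins of snoRNA particles and their assembly, 2 rose, or 10.5% against 9.74% of all tested genes, and the median on the log2 scale was 0.017. Nop10, a subunit of H/ACA particles, was at 55.3 ± 2.66 and 63.1 ± 2.7 CPM (mean ± SD, n = 3; log2 fold change 0.19, edgeR adjusted p = 0.0455). It missed with the length trend removed (adjusted p = 0.321) and without any 1 library other than D-serine replicate 2 (up to 0.173). Pih1d1, part of the chaperone complex that assembles the particles, was at 20.2 ± 1.5 and 26.4 ± 0.73 CPM (log2 fold change 0.39, and 0.29 with the length trend removed; edgeR adjusted p = 0.0108 and 0.00743). It missed without control replicate 1 (0.057) or control replicate 2 (0.0611), and shares 147 exonic bases with Aldh16a1 on the opposite strand.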

How the data were processed

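Poly(A) RNA of Neuro2a cells was sequenced from 6 stranded TruSeq libraries, per the labels' protocols. Unnormalized read counts for each gene, beside exonic lengths, come from 1 table of the authors. Per the file headers, its layout is that of featureCounts. The submitters' processing notes name Trim Galore, HISAT2, Subread and DESeq2. Versions, the strand setting and the treatment of multi-mapped reads are not given in the sources used here. Columns named vehicle were assigned to the control samples of the same number.

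Counts were tested with edgeR 4.0.16 in R 4.3.3 (filterByExpr, TMM scaling, quasi-likelihood F test, no covariate, 13366 genes, two-sided). P-values were adjusted by Benjamini-Hochberg over all genes tested, with a threshold of 0.05. SE is the log2 fold change over the square root of F, and 95% intervals use the degrees of freedom of the fit. CPM is the deposited count over the TMM-adjusted library size, and RPKM is CPM per 1000 exonic bases. The procedure was tested on simulated data. Intervals cover the spread of these libraries.

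The members and lists were chosen with earlier results of these data known, and lists are described by counts and medians without a set test. Named genes were the 7 hosts, up to 6 called members of each list, 6 further genes listed by name (Zfas1, Dancr, Snhg15, Snhg16, Upf1 and Smg1), and the 5 genes most correlated with the hosts. Alternatives were DESeq2 1.42.0, limma-voom (limma 3.58.1), other scalings and filters, a replicate block, removal of each library's length trend (natural spline, 5 degrees of freedom) and omission of each library. Removal of the trend without D-serine replicate 1, the count ratios and the letter searches were added after seeing the data. Some items that the rule for named genes would name are not reported here.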

Additional observations from a re-analysis of the deposited data

How the results depend on the processing

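Over the 17 alternatives, the log2 fold changes of the 7 hosts kept their sign and their side of the threshold in 91 of 119 cases, were newly past the threshold in 8 and changed sign in 20, none of these called. The count of called hosts was 0, except for 2 (Snhg12 and Snhg8) with the length trend removed, alone, with the replicate block or without D-serine replicate 1, and ran from 0 to 2 in the 6 fits that each left out 1 library. The 2 came without D-serine replicate 1. The log2 fold change of Snhg12 lay between -0.26 and -0.085 and that of Snhg8 between -0.35 and -0.042, below 0 throughout. Leaving out 1 library gave -0.14 to 0.026 for Gas5 (above 0 without control replicate 2), -0.083 to 0.015 for Snhg6 (above 0 without D-serine replicate 3), -0.078 to 0.15 for Snhg3 and -0.033 to 0.041 for Snhg5. With the length trend removed, alone, with the replicate block and without D-serine replicate 1, sign changes were to -0.053, -0.053 and -0.066 for Snhg1, -0.088, -0.078 and -0.050 for Snhg3 and -0.11, -0.11 and -0.12 for Snhg5. Snhg3 was below 0 without control replicate 1 or 3 or D-serine replicate 2, and Snhg5 without control replicate 2 or 3 or D-serine replicate 1 or 2. Snhg5 was at -0.0014 with DESeq2 and with its size factors.

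Replicate numbers showed no sign of pairing: same-numbered deviations correlated at -0.0687, 0.0197 and -0.0187, and the others at -0.0761 to 0.0877. Deviations from the means of 3 libraries cannot settle whether the cultures were paired, and the labels do not say. In the main fit, the tested list members were 13 noncoding hosts, 48 coding hosts, 24 decay factors, 15 decay targets and 19 particle proteins. With the replicate block, 298 genes were called against 1302, with 1 coding host, 0 decay targets and 1 particle protein. The block ended the calls of Rbm8a, Rpl3, Hspa9, Mrpl3, Nat9, Tra2b and Nop10 (adjusted p from 0.0544 to 0.111). With the length trend removed 2118 genes were called (15.8% of those tested). Among them were 2 noncoding hosts, 11 coding hosts, 6 decay factors and 1 decay target. With the block as well there were 1887 genes, 2 noncoding hosts, 5 decay factors and 0 decay targets. With the length trend removed and D-serine replicate 1 left out, 2107 genes were called (15.5% of those tested). They included 4 noncoding hosts, 18 coding hosts, 6 decay factors and 4 particle proteins. DESeq2 called 1645 genes (12.3% of those tested), with 2 noncoding and 7 coding hosts. With no filter there were 1867 genes, 2 noncoding hosts, 7 coding hosts and 5 decay targets. Upper quartile scaling and library totals called 1326 and 1356 genes, each with 7 coding hosts and 6 decay targets. Leaving out 1 library gave 68 to 1699 genes (lowest without control replicate 2, highest without D-serine replicate 1), 0 to 2 noncoding hosts, 0 to 6 coding hosts, 2 to 5 decay factors, 0 to 4 decay targets and 0 to 3 particle proteins. The cause was not tested. Upper quartile scaling and library totals moved the median of all tested genes from 0.0053 to 0.035 on the log2 scale, and divided all called genes into 914 higher and 412 lower, and 944 and 412, against 647 and 655. Snhg3, with 168 to 238 counts per library, and the snoRNA genes are limited by depth.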
